A study of Mus musculus with 23 samples.

Results

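The genes described here are 10 effectors of the disease-associated microglia programme: Apoe, Lpl, Cst7, Itgax, Clec7a, Spp1, Gpnmb, Fabp5, Cd9 and Lgals3. They were picked by name from the 53090 genes in the deposited tables, with the symbol read from each gene identifier. The rule uses no measured value, but the list was chosen with earlier results of these data known. All 10 were among the 18720 genes with enough reads to be tested. RNA was sequenced from brain microglia of female C57BL/6 mice in 23 libraries. The groups were young (Y, n = 7), young repopulated (Y-re, n = 3), old (O, n = 5) and old repopulated (O-re, n = 8). Repopulated mice had eaten AIN-76A chow with PLX5622 at 1200 ppm, an inhibitor of the receptor CSF1R on which microglia depend for survival, and had then refilled the brain with new microglia. The treatment text gives control animals the same chow without the drug, but does not tie that diet to single samples. Neither the ages, nor how long the drug was fed, nor the interval before sampling is stated in the sources used here.

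Disease-associated microglia are a state described in brains with amyloid deposits, dying neurons or damaged myelin, and also in aged white matter. In that state microglia lower their resting surface genes and raise genes for lipid transport, lysosomes and phagocytosis, in large part through the lipid-sensing receptor TREM2 and its adaptor TYROBP. The proteins fall into 3 kinds. Apoe, Lpl and Fabp5 carry, release or bind lipids. Itgax, Clec7a and Cd9 sit in the plasma membrane, and Spp1, Gpnmb, Lgals3 and Cst7 are secreted or act in lysosomes and endosomes.

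Promoter sequence was available from RefSeq (build GRCm38) for 8 of the 10 genes, the exceptions being Lpl and Fabp5. The 250 bases before each transcript start, 12 windows in all, were searched on both strands for GAGGAAGT and GAGGAACT (cores of sites for PU.1, the factor that specifies myeloid cells), CACGTG (the E-box read by MITF and TFE factors) and TGANTCA (AP-1). Itgax and Spp1 were the only members with a match, and the 2 matches did not overlap another motif. The Itgax window, chr7:128129300-128129549 on the plus strand, holds TGAGTCA between 56 and 50 bases before the start. The Spp1 window, chr5:104434861-104435110 on the plus strand, holds GAGGAAGT between 113 and 106 bases before the start. Their sequences are printed with the match in capitals, beside those of Clec7a (chr6:129472780-129473029, minus strand) and Gpnmb (chr6:49036268-49036517, plus strand), the members with the smallest and the largest spread within groups, in which no motif matched.
Itgax: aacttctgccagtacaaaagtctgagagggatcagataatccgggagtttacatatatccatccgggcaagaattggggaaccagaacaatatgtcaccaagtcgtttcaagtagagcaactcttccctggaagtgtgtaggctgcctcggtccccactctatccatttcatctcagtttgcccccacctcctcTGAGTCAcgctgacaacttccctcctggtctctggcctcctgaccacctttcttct
Spp1: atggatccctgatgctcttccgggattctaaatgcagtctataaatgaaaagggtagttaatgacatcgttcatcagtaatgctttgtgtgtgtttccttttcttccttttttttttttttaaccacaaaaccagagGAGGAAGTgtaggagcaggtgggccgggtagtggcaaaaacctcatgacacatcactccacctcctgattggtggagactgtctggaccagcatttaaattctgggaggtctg
Clec7a: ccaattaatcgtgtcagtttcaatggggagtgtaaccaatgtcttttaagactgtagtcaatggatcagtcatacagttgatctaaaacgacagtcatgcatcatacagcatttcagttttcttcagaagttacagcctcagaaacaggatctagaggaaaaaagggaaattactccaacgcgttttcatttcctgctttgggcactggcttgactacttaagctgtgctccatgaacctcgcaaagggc
Gpnmb: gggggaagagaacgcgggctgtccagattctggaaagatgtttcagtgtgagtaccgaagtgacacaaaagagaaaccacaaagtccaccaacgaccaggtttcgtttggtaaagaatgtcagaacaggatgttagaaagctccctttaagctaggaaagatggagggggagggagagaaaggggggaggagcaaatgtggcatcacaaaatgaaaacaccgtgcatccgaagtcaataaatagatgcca
Of 32851 RefSeq promoter windows of this length, 6.75% held TGANTCA, 2.44% held GAGGAAGT, 1.29% held GAGGAACT and 6.02% held CACGTG. The matches describe the letters alone.

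Library totals ran from 43.66 to 58.19 M counts. Sample titles number the libraries, and numbers 1 to 11 and 12 to 24 form 2 runs: the lower run held 3 Y, 2 O and 5 O-re libraries, and the higher run held 4 Y, 3 O, 3 O-re and all 3 Y-re libraries. What set the runs apart is not given in the sources used here. Young replicate 3 had the fewest genes with a count (16399, against 17620 or more elsewhere), and leaving it out changed the number of members called in none of the 7 comparisons. Replicates were labelled as separate samples, but nothing states that each came from its own mouse. The p-values thus set group differences against the spread between these samples, which need not be the spread between mice. Microglial identity genes were abundant in every group: Csf1r averaged 6910 CPM (counts per M counts, scaled by TMM) in Y, 6160 in Y-re, 4530 in O and 4270 in O-re, and P2ry12 averaged 1750, 1230, 1090 and 765 CPM. In such bulk samples, fewer cells of a type and less RNA per cell cannot be told apart.

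Compared per transcript length as deposited TPM (transcripts per M transcripts), Apoe was the most abundant of the 10 genes in each group, followed by Spp1 and Cd9. Mean Apoe TPM was 13488 ± 3829 (SD, n = 7) in Y, 39901 ± 8936 (SD, n = 3) in Y-re, 19094 ± 6933 (SD, n = 5) in O and 28536 ± 11771 (SD, n = 8) in O-re. In Y, Y-re and O libraries the ranges of Apoe, Spp1 and Cd9 did not overlap, whereas in O-re neighbouring ranges did. Lower in the order the ranks moved. Gpnmb ranked 9 in Y at 78.0 ± 43.7 TPM (SD, n = 7) and 4 in O at 628 ± 372 TPM (SD, n = 5). Lgals3 ranked 7 in Y at 107 ± 37.8 TPM (SD, n = 7) and 4 in O-re at 654 ± 486 TPM (SD, n = 8). Itgax was the least abundant in Y and Lpl in the other groups. From rank 4 down, the ranges of neighbours overlapped in each group, except between Lgals3 and Itgax in Y-re, so that the order there is not fixed beyond the spread.

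**Figure D1:**
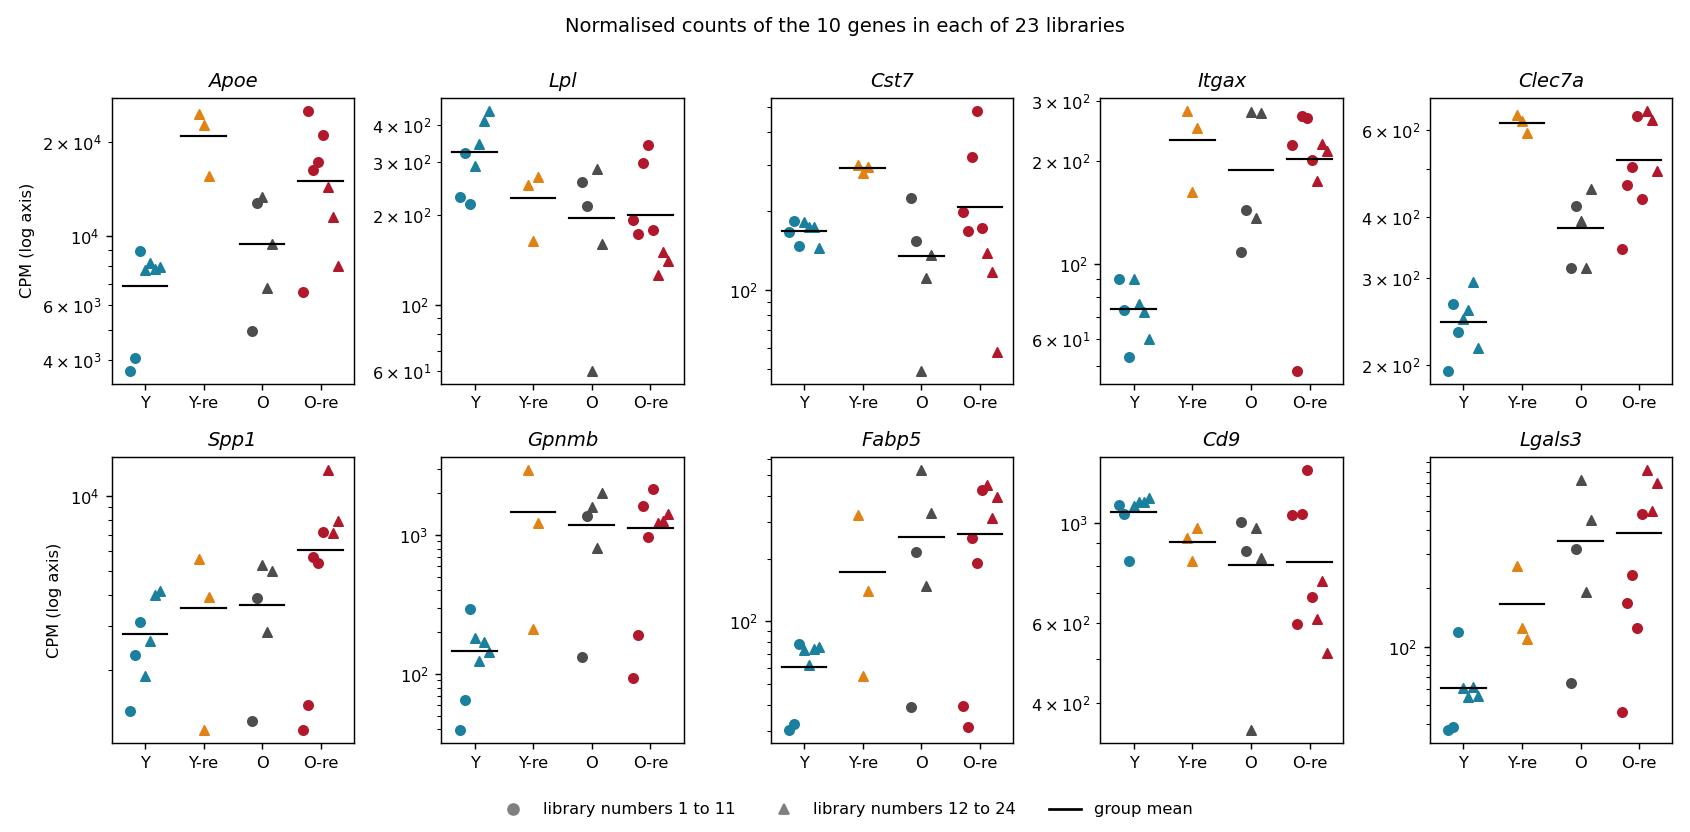
Each panel plots the TMM-scaled CPM of 1 gene (log axis) in every library, grouped as Y, Y-re, O and O-re on the x axis, with circles for library numbers 1 to 11, triangles for 12 to 24 and a bar at the group mean. All Y-re, O and O-re values of Clec7a lie above the 7 Y values, while Gpnmb, Fabp5 and Lgals3 each have O or O-re libraries as low as Y.

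The lipid genes did not share a pattern. Apoe, the apolipoprotein that microglia load with cholesterol and secrete, was higher after repopulation in young mice and higher in old repopulated than in young mice. Apoe CPM ran from 3702 to 8916 with a median of 7808 in the 7 Y libraries, and was 24504, 22559 and 15553 in Y-re replicates 1 to 3. It was 4958, 12717, 13307, 6825 and 9388 in the 5 O libraries and ran from 6607 to 25147 with a median of 15272 in O-re. Every Y-re library exceeded every Y library, whereas 2 of the 8 O-re and 2 of the 5 O libraries lay within the Y range. The log2 fold change was 1.59 ± 0.35 (SE) for Y-re versus Y (edgeR adjusted p 0.0251), a 3.02-fold difference, and 1.12 ± 0.28 for O-re versus Y (edgeR adjusted p 0.0107). For O versus Y it was 0.45 ± 0.31 (adjusted p 0.538) and for O-re versus O 0.67 ± 0.31 (adjusted p 0.446). The Y-re call was lost without Y-re replicate 1 (log2 fold change 1.46, adjusted p 0.155) or replicate 2 (1.57, adjusted p 0.129).

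Lpl encodes lipoprotein lipase, which frees fatty acids from triglyceride-rich lipoproteins. Its CPM ran from 218 to 446 with a median of 321 in Y and from 126 to 342 with a median of 176 in O-re. It was 251, 163 and 268 in Y-re, and 257, 213, 60.0, 285 and 159 in O. The means of the other 3 groups were below that of Y, and 6 of 8 O-re, 3 of 5 O and 1 of 3 Y-re libraries lay below every Y library, the others within the Y range. The edgeR log2 fold changes were -0.73 ± 0.31 (SE) for O versus Y (adjusted p 0.237), -0.51 ± 0.36 for Y-re versus Y (adjusted p 0.562) and -0.70 ± 0.26 for O-re versus Y (adjusted p 0.0759). None passed the threshold of 0.05. DESeq2 put O-re below Y by a similar amount (log2 fold change -0.70) with an adjusted p of 0.0366. EdgeR called this difference with the run of library numbers as a term (-0.79, adjusted p 0.0443). It was also called in an edgeR fit of the compared groups alone (-0.68, adjusted p 0.0469) and in 3 of 23 fits that left out 1 library.

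Fabp5, the epidermal fatty acid binding protein that shuttles lipids inside cells, varied more between libraries of 1 group than most genes. Fabp5 CPM ran from 30.1 to 78.1 with a median of 73.2 in Y and from 31.3 to 451 with a median of 282 in O-re. In Y-re it was 323, 54.6 and 139, and in O it was 39.0, 216, 529.5, 148 and 329.9. The O and O-re libraries were therefore spread on both sides of a gap: 4 of 5 and 6 of 8 exceeded every Y library, and the others lay within the Y range. Fabp5 rose in O-re versus Y by 2.11 ± 0.55 (SE) on the log2 scale, 4.32-fold (edgeR adjusted p 0.0133). For O versus Y the change was 2.06 ± 0.59 with an edgeR adjusted p of 0.0621, just outside the threshold, and DESeq2 gave 0.0199.

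Among the membrane proteins Clec7a, which encodes Dectin-1, a C-type lectin receptor for beta-glucans that signals through SYK, had the smallest within-group SD of log2 CPM of the 10 when pooled over the 4 groups. Clec7a CPM ran from 195 to 296 with a median of 248 in Y and was 642, 625.1 and 591 in Y-re. It was 314, 421, 392, 315 and 456 in O and ran from 344 to 656 with a median of 499.8 in O-re. No library of the other 3 groups fell to the highest Y value. Clec7a rose 1.55-fold in O versus Y (log2 0.63 ± 0.14 SE, edgeR adjusted p 0.0176), 2.53-fold in Y-re versus Y (log2 1.34 ± 0.16 SE, adjusted p 0.000112) and 2.13-fold in O-re versus Y (log2 1.09 ± 0.13 SE, adjusted p 3.9e-05). The O-re versus O difference was 0.46 ± 0.14 (SE), with 6 of 8 O-re libraries above every O library, an unadjusted p of 0.00365 and an edgeR adjusted p of 0.174. Without O-re replicate 1, the lowest of its group, that change was 0.53 with an adjusted p of 0.0498. The annotation (GENCODE M21) lists Clec7a as a polymorphic pseudogene on chromosome 6, 129461591 to 129472779, minus strand.

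Itgax encodes CD11c, an integrin subunit carried by dendritic cells and by microglia of this state. Its CPM ran from 53.1 to 90.5 with a median of 73.1 in Y and was 281, 162 and 251 in Y-re. The O libraries gave 108, 144, 278, 136 and 276, and O-re ran from 48.5 to 271 with a median of 218. Every Y-re and O library exceeded every Y library, and so did 7 of 8 O-re libraries, while O-re replicate 2 lay below all of them. Itgax rose by 1.36 ± 0.29 (SE) in O versus Y (edgeR adjusted p 0.0135), 1.65 ± 0.33 in Y-re versus Y (adjusted p 0.0134) and 1.46 ± 0.27 in O-re versus Y (adjusted p 0.00146), on the log2 scale. O-re and O differed by 0.11 ± 0.29 (adjusted p 0.96). The gene lies on chromosome 7, 128129547 to 128150657, plus strand (GRCm38, GENCODE M21).

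Cd9, a tetraspanin that organises other membrane proteins, was the third most abundant member and was not called in any comparison of all libraries by edgeR. Cd9 CPM ran from 822 to 1134 with a median of 1090.3 in Y and from 515 to 1304 with a median of 714 in O-re. It was 925, 824 and 971 in Y-re and 1004, 866, 348, 970.3 and 834 in O. Most O-re libraries (5 of 8) lay below every Y library and 1 lay above. The log2 fold change was -0.37 ± 0.20 (SE) for O-re versus Y (edgeR adjusted p 0.21), -0.39 ± 0.23 for O versus Y (adjusted p 0.429) and -0.22 ± 0.27 for Y-re versus Y (adjusted p 0.776). With sample quality weights in voom, O-re versus Y gave -0.58 with an adjusted p of 0.00357.

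Gpnmb, a lysosomal and cell-surface glycoprotein made by lipid-laden macrophages, had the largest log2 fold changes of the 10 in the edgeR comparisons of O, Y-re and O-re with Y. Gpnmb CPM ran from 39.4 to 293 with a median of 144 in Y and was 2929.5, 211 and 1229 in Y-re. It was 133, 1366, 1589.5, 806 and 2004 in O and ran from 93.7 to 2159 with a median of 1236 in O-re. In each of the other groups most libraries were above every Y library, and 1 or 2 libraries (Y-re replicate 2, O replicate 1, O-re replicates 1 and 2) lay within the Y range. Gpnmb rose 8.11-fold in O versus Y (log2 3.02 ± 0.69 SE, edgeR adjusted p 0.0191), and Y-re versus Y and O-re versus Y gave log2 values of 3.32 ± 0.75 and 2.94 ± 0.65 (adjusted p 0.0293 and 0.00502). The Y-re call was lost in 7 of 23 fits that left out 1 library, with a log2 fold change of 2.31 and an adjusted p of 0.28 without Y-re replicate 1. O-re and O differed by -0.08 ± 0.65 (adjusted p 0.992).

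Lgals3 encodes galectin-3, a beta-galactoside-binding lectin that is secreted and gathers on damaged lysosomes. Its CPM ran from 36.9 to 119 with a median of 55.7 in Y, was 262, 125 and 109 in Y-re and 64.9, 318, 723, 191 and 449.6 in O, and ran from 46.0 to 816 with a median of 359 in O-re. All but 1 library of O and of O-re exceeded every Y library. Lgals3 rose 5.73-fold in O versus Y (log2 2.52 ± 0.56 SE, edgeR adjusted p 0.0173) and 6.31-fold in O-re versus Y (log2 2.66 ± 0.53 SE, adjusted p 0.00259). For Y-re versus Y the change was 1.44 ± 0.62 with an adjusted p of 0.271. O-re less Y-re was 1.22 ± 0.69, with an adjusted p of 0.472 by edgeR and 0.0465 by voom with sample quality weights.

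Spp1, the secreted matrix protein osteopontin that binds integrins and CD44, was second in abundance. It was not called in any comparison by the edgeR model with 1 coefficient per group. Spp1 CPM ran from 1378 to 4177 with a median of 2619.7 in Y and from 1154 to 12669 with a median of 6398 in O-re. It was 5599, 1149.8 and 3937 in Y-re and 1254, 3894, 5292, 2853 and 5006 in O. The O-re group held the highest value of the study and also a value below every Y library. Comparing O-re with Y gave 1.12 ± 0.43 (SE) on the log2 scale (edgeR adjusted p 0.0799), with 6 of 8 O-re libraries above every Y library, and DESeq2 gave an adjusted p of 0.0232. With the run of library numbers as a term, edgeR called Spp1 higher in O-re versus Y (1.19, adjusted p 0.0304). For O versus Y it was 0.39 ± 0.48 (adjusted p 0.772) and for Y-re versus Y 0.35 ± 0.56 (adjusted p 0.836). The second of these became -0.13 without Y-re replicate 1.

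Cst7 encodes cystatin F, an inhibitor of lysosomal cysteine proteases. Its CPM ran from 145 to 184 with a median of 174 in Y and was 300.1, 281 and 295 in Y-re. It was 223, 154, 49.1, 111 and 136 in O and ran from 58.0 to 484 with a median of 169.6 in O-re. The 3 Y-re values lay close together and above all Y values, whereas O-re libraries lay on both sides of the Y range, 3 above and 3 below it. The Y-re versus Y change of 0.80 ± 0.41 (SE) had an edgeR adjusted p of 0.358 in the model of all groups, which uses 1 spread per gene, and 0.000235 in a fit of those 2 groups alone. The other comparisons gave -0.31 ± 0.36 for O versus Y (adjusted p 0.753) and 0.31 ± 0.32 for O-re versus Y (adjusted p 0.556).

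For Spp1, Cd9, Fabp5 and Itgax the deposited expected counts were whole numbers in 0.0%, 8.7%, 17.4% and 21.7% of the libraries. Reads of these genes were thus partly divided with other features, which leaves their levels less certain. The other 6 genes had whole counts in every library.

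Read by comparison, 4 of the 10 genes were higher at old age: Itgax, Clec7a, Gpnmb and Lgals3 were called higher in O than in Y and none lower. Over all genes tested 2.83% were called in O versus Y. The median log2 fold change of the 10 was 0.54, against -0.01 over all genes. Groups of 2 members, Itgax and Clec7a, did not overlap, as was so for 2.21% of all genes. The calls depended on 2 old libraries: without old replicate 3 no member was called (adjusted p 0.0656 to 0.102 for the 4), and without old replicate 5 Lgals3 alone was. Without replicate 3 the log2 fold changes were 0.62 for Clec7a, 1.18 for Itgax, 2.89 for Gpnmb and 2.07 for Lgals3. That library had the highest summed monocyte (4798 CPM) and dendritic cell (289.6 CPM) markers and the lowest summed homeostatic genes (12600 CPM) of the 5 O libraries, and the part of this in the calls was not tested.

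In Y-re versus Y edgeR called 4 members higher, Apoe, Itgax, Clec7a and Gpnmb, with a background of 1.34% of genes called. The members' median change was 1.39, against -0.04 over all genes. Ranges of 4 members, Apoe, Cst7, Itgax and Clec7a, did not overlap between Y-re and Y, as was so for 12.1% of all genes. Of the 4 calls, that of Clec7a alone stood without Y-re replicate 1, and those of Apoe and Clec7a without Y-re replicate 3. All 3 Y-re libraries were in the higher run of library numbers, while Y libraries were in both runs. Within that higher run edgeR called 5 members higher, with 9.3% of genes called.

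In O-re versus O edgeR called no member over all libraries, with 0.278% of all genes called. Apoe (unadjusted p 0.0418) and Clec7a (0.00365) were under 0.05 before adjustment, as were 1941 of 18720 genes. No member was called by DESeq2 or by voom with sample quality weights. Within library numbers 12 to 24 edgeR called Clec7a higher (0.61, adjusted p 0.0206), with 12.7% of genes called. The lack of calls over all libraries does not show that the members were unchanged. Over all libraries the members' median change was 0.12, and 9 of 10 were positive. The ranges of O-re and O overlapped for each member, while 0.737% of all genes had none. Gpnmb, Fabp5, Lgals3, Itgax, Lpl and Cd9 had estimates between -0.08 and 0.14, each smaller than its SE. Their sign changed under other settings, so no direction can be given for them.

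In O-re versus Y edgeR called 6 members higher, Apoe, Itgax, Clec7a, Gpnmb, Fabp5 and Lgals3, and none lower, with 15.2% of all genes called. Ranges overlapped for each member but Clec7a, against 2.24% of all genes without overlap. The members' median was 1.12, against -0.02 over all genes. All 6 calls held in each fit that left out 1 library. The O versus Y, Y-re versus Y and O-re versus Y comparisons share the 7 Y libraries, so their values are not independent of each other.

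The repopulation effect averaged over both ages was positive for 8 of 10 members, and Apoe (1.13 ± 0.24, SE, edgeR adjusted p 0.0088), Itgax (0.88 ± 0.22, adjusted p 0.0293) and Clec7a (0.90 ± 0.11, adjusted p 9.42e-05) were called, beside 3.39% of all genes. The Itgax call was lost without Y-re replicate 1 or 3, or O replicate 1, 2 or 4 (adjusted p 0.0502 to 0.113). Whether the effect differed between ages was tested by the interaction, the repopulation change at old age minus the change at young age. Gpnmb gave -3.40 ± 0.99 (SE), Itgax -1.54 ± 0.44 and Clec7a -0.88 ± 0.21, with edgeR adjusted p of 0.401, 0.401 and 0.336. No member and 0.0% of all genes passed for the interaction, although 3 members and 1542 genes had an unadjusted p under 0.05. DESeq2 called 1 member, Clec7a (adjusted p 0.0401), with 0.246% of all genes, and voom with sample quality weights 2, Clec7a and Itgax (0.0356 for each), with 0.807%. O-re versus Y-re likewise called 0.0% of genes by edgeR (2183 at an unadjusted p under 0.05, none of them a member), while DESeq2 called 92 genes (0.491%) without a member and voom with weights called 3189 (17%), among them Cst7 and Lgals3.

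The other tools called as many members or more, and more genes in all. DESeq2 called 5 members in O versus Y (5.18% of genes), 4 in Y-re versus Y (4.46%), 0 in O-re versus O (1.67%), 8 in O-re versus Y (19.7%) and 4 for the averaged repopulation effect (6.68%). Voom with sample quality weights called 6 (12.6%), 6 (13.8%), 0 (2.21%), 9 (35.5%) and 5 (13.9%) in the same order. Calls in the lower direction came in here: Lpl was lower in O-re versus Y by DESeq2 and, with Cd9, by voom (log2 fold changes -1.02 and -0.58), and Lpl was lower in O versus Y by voom (-0.94, adjusted p 0.0106). Some alternative edgeR fits also called Lpl lower in O-re versus Y, as given above for that gene.

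**Figure D2:**
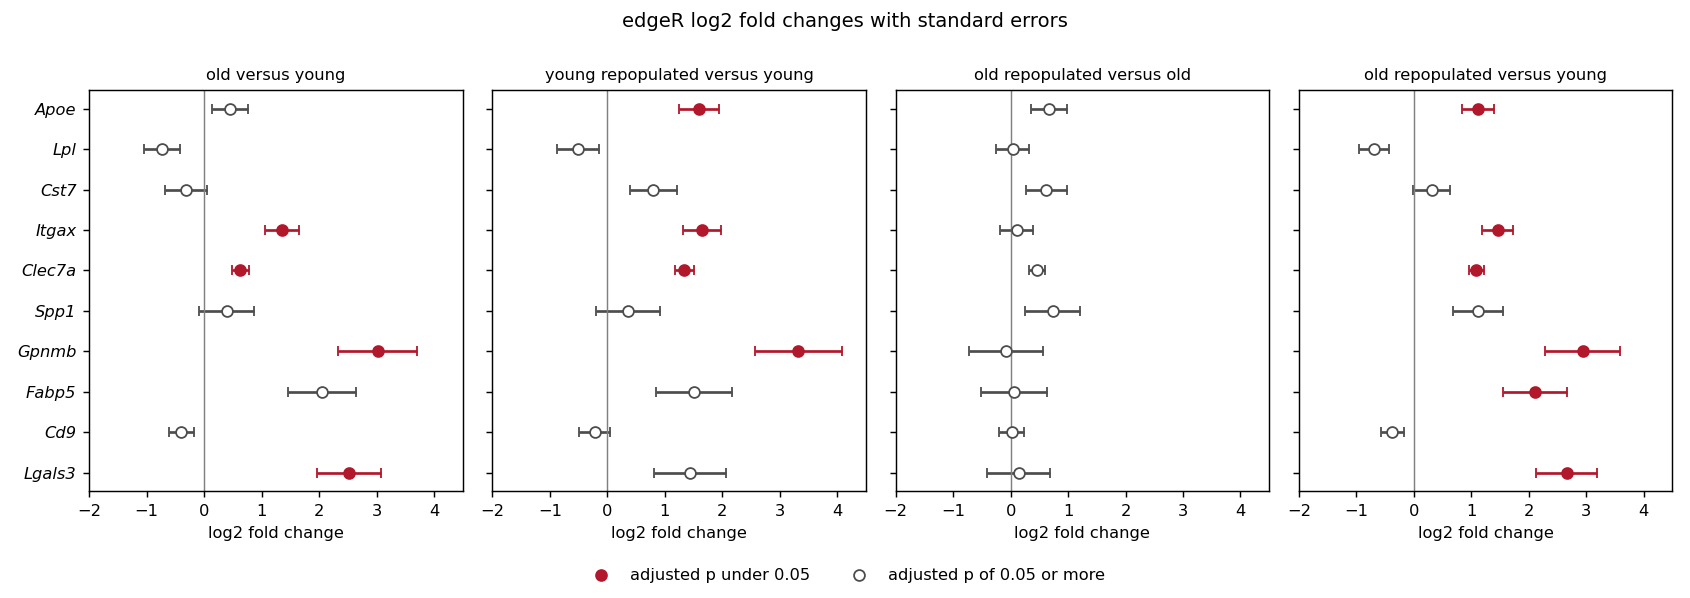
The x axis is the log2 fold change from edgeR with its SE as bars, 1 row per gene and 1 panel per comparison. Filled red points passed an adjusted p of 0.05: there are 4, 4, 0 and 6 of them from left to right.

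Within runs of library numbers the same comparisons were refitted. In numbers 1 to 11 edgeR called 0.00533% of genes for O versus Y, 0.0% for O-re versus O and 0.0107% for O-re versus Y. No member was called in any of the 3, with 1, 0 and 6 members at an unadjusted p under 0.05. The share of all genes under that unadjusted p in this run is not given, so these counts are not read further. In the fit of all libraries 2870, 1941 and 5704 of 18720 genes were under it. In numbers 12 to 24 edgeR called 5 members in O versus Y (15.7% of genes), 5 in Y-re versus Y (9.3%), 1 in O-re versus O (12.7%) and 8 in O-re versus Y (41.1%). It also called 4 in O-re versus Y-re (36.3%), 5 for the averaged repopulation effect (14.1%) and 4 for the interaction (8.87%). Gpnmb and Clec7a had like sizes in both runs: for O versus Y, Gpnmb gave 2.49 in the lower and 3.25 in the higher numbers, and Clec7a gave 0.66 and 0.61. Lgals3 was larger in the higher run, with 1.70 against 3.54 for O-re versus Y. Apoe went the other way, with 1.63 against 0.52, and its O-re versus Y call was lost within each run (adjusted p 0.367 and 0.0878). Cst7 changed sign between runs, from 0.71 to -0.68, and Lpl was near 0 in the lower run (-0.11) and lower in O-re in the higher run (-1.42, adjusted p 0.0108). The differences in size between runs were not tested.

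**Figure D3:**
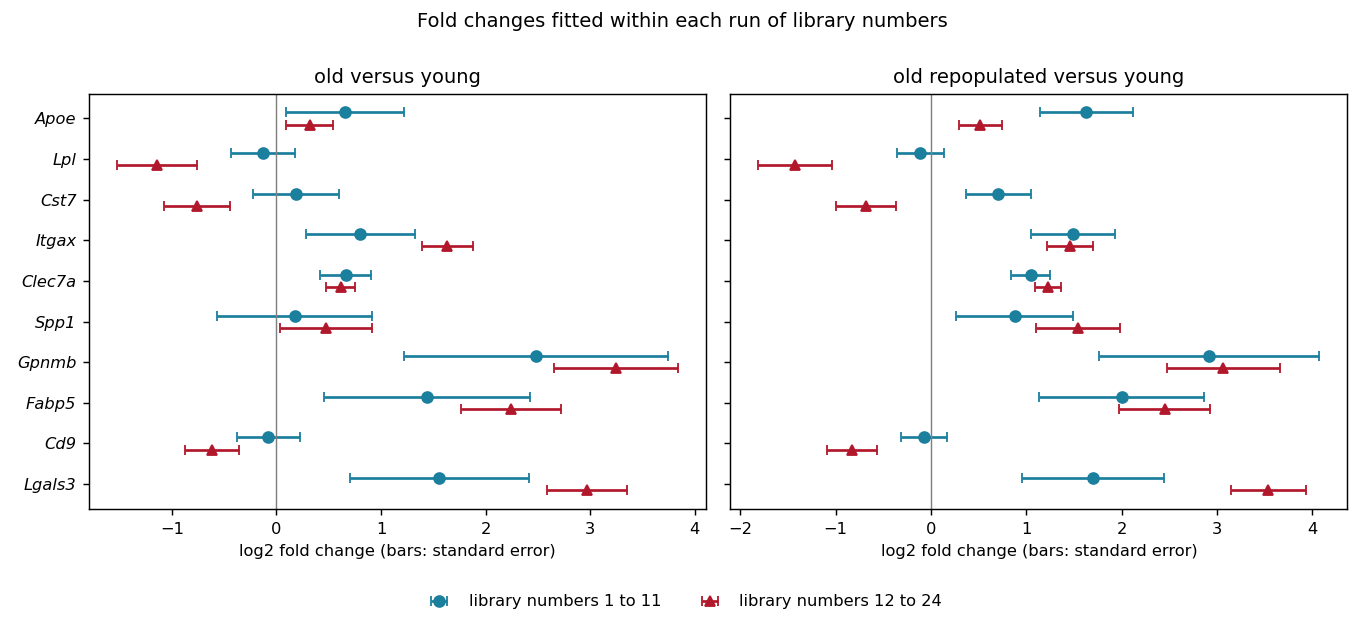
The x axis is the log2 fold change fitted separately in library numbers 1 to 11 (circles) and 12 to 24 (triangles), with the SE as bars, for O versus Y and O-re versus Y. Gpnmb and Clec7a lie at like positions in both runs, while Lpl, Cst7 and Cd9 are lower in the higher run.

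Libraries of 1 group differed widely for several members. The within-group SD of log2 CPM was 1.48 for Gpnmb, 1.26 for Fabp5, 1.13 for Lgals3 and 0.98 for Spp1, more than for 98.7%, 98.1%, 97.4% and 96.4% of genes of at least 5 mean CPM. That of Clec7a was 0.25, near the median gene at 0.24. These 4 variable genes moved together across the 23 libraries. Pearson's r of log2 CPM was 0.937 for Gpnmb and Fabp5 (Spearman's rho 0.878), 0.890 for Spp1 and Fabp5 (rho 0.883), and 0.894 for Fabp5 and Lgals3 (rho 0.876). For these pairs both permutation p were 1e-05, the smallest that 100000 permutations can give, and adjusted over 45 pairs they were 6.43e-05 for r and 9e-05 for rho. With group means removed r was 0.939, 0.94 and 0.855. Without the 2 libraries farthest from the median of the first-named gene it was 0.924, 0.892 and 0.940. Within library numbers 1 to 11 and 12 to 24, Gpnmb and Fabp5 gave 0.961 (n = 10) and 0.906 (n = 13) as a description.

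A second cluster held Lpl, Cd9 and Cst7. Lpl and Cd9 had an r of 0.905 (rho 0.901, both permutation p 1e-05, adjusted 6.43e-05 and 9e-05), which was 0.881 with group means removed and 0.844 without the 2 farthest libraries. Within runs it was 0.797 and 0.944. Cst7 and Cd9 gave 0.723 (rho 0.526, permutation p 0.00014 and 0.0109, adjusted 0.000525 and 0.0234), and 0.851 with group means removed. Without the 2 farthest libraries the 0.723 fell to 0.411, so that much of this relation rests on them. Within runs r was 0.636 and 0.734. Between the clusters r was negative in all 12 pairs over the 23 libraries, but 4 had an adjusted p under 0.05, those of Lpl and of Cd9 with Fabp5 and Lgals3. Cd9 and Lgals3 gave -0.756 (rho -0.771, permutation p 1e-05 and 5e-05, adjusted 6.43e-05 and 0.000281), -0.712 without the 2 farthest libraries, and -0.538 and -0.838 within runs. Cst7 with Spp1, Gpnmb and Fabp5 gave -0.248, -0.118 and -0.309 (adjusted permutation p 0.288, 0.61 and 0.189). In library numbers 1 to 11, 7 of the 12 pairs were positive, and in numbers 12 to 24 none was. Of the 45 pairs, 26 had an adjusted p under 0.05 for r, 22 of them positive and 4 negative. All pairs share library, scaling and run.

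**Figure D4:**
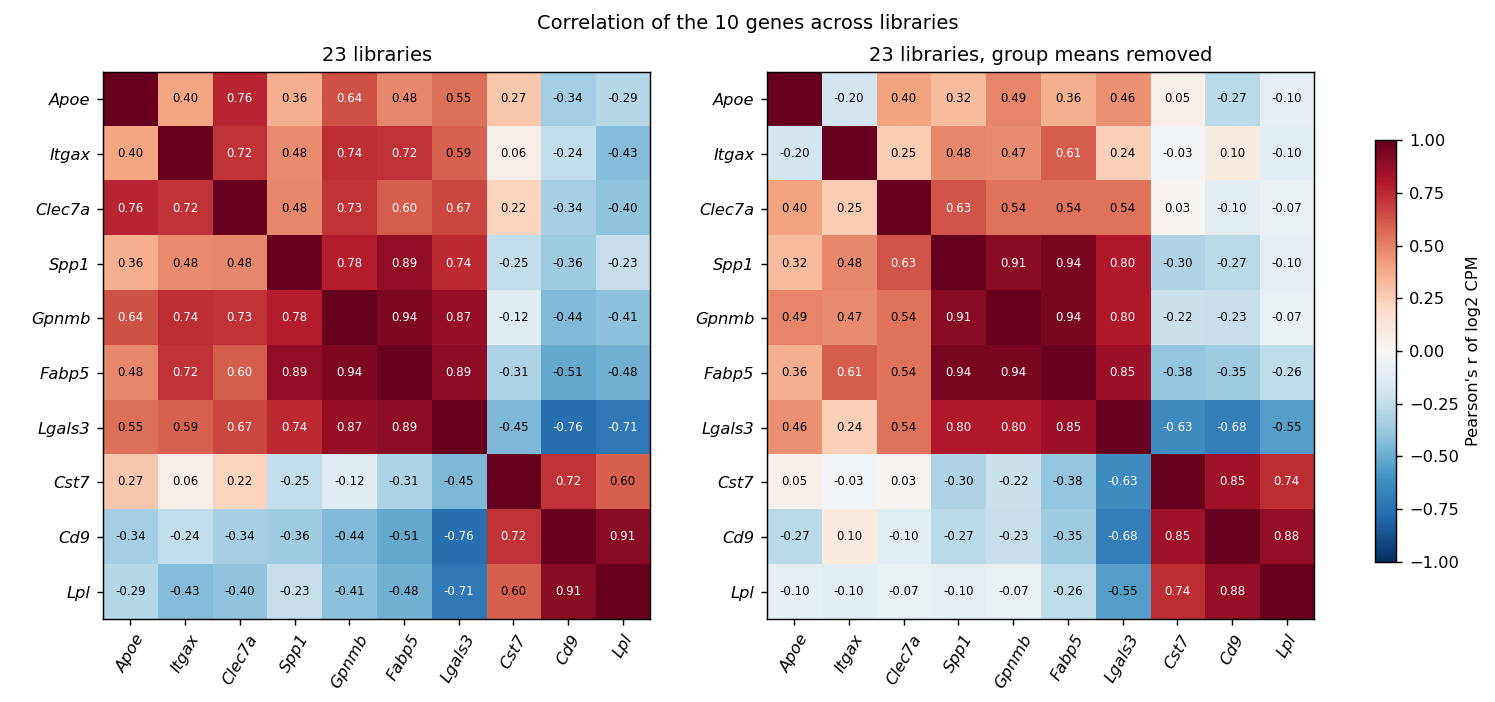
Both heatmaps colour Pearson's r of log2 CPM between each pair of the 10 genes, at the left over 23 libraries and at the right after group means were removed. Spp1, Gpnmb, Fabp5 and Lgals3 form a red block, Cst7, Cd9 and Lpl a second one, and the cells between Lgals3 and the second block are blue in both.

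Summed markers of dendritic cells and of monocytes correlated positively with each gene of the first cluster. Their r ran from 0.683 to 0.971 and from 0.619 to 0.862. The summed neutrophil markers went the other way, at -0.56 for Spp1, -0.434 for Gpnmb, -0.519 for Fabp5 and -0.609 for Lgals3. Most of that neutrophil sum was 1 gene, the receptor Csf3r (505 CPM in Y, 332 in O-re). Of the 10 neutrophil markers, 5 were called higher in O versus Y, among them Mmp8 (2.59 CPM in Y, 22.6 in O). These r therefore do not describe the neutrophil markers as a set. The summed CPM of 10 dendritic cell markers was 9.85 to 35.7 in Y, 30.0 to 76.0 in Y-re, 22.5 to 289.6 in O and 22.6 to 279.8 in O-re, and none of the 10 was at 0 throughout a group. Of the 10, 5 were called higher in O versus Y and 5 in O-re versus Y, and Cd209a was the 1 called in Y-re versus Y. Flt3 averaged 1.44 CPM in Y and 16.6 in O. The largest part of the sum in O-re was Cd24a, at 3.85 CPM in Y and 76.7 in O-re. Not all of the 10 rose: between Y and O-re Xcr1 averaged 0.881 and 0.352 CPM, Itgae 2.86 and 2.19, and Zbtb46 2.85 and 3.01. The sum of 10 monocyte markers was 291 to 1657, 653 to 1161, 511 to 4798 and 384 to 7486 CPM in the same order, with 7 called higher in O versus Y, 8 in O-re versus Y, and none at 0 in a group. In Y-re versus Y and O-re versus O edgeR called 0 of the 10, with 3 and 1 at an unadjusted p under 0.05, and DESeq2 called 1 and 0. Most of that sum was Fn1 (899 CPM in Y, 2350 in O-re). Ccr2 averaged 12.4, 65.1, 189 and 178 CPM and Ly6c2 1.83, 19.2, 139 and 36.7 CPM.

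Lgals3 tracked the dendritic sum with an r of 0.971 (rho 0.956, both permutation p 1e-05, adjusted over 40 relations 4.44e-05 and 6.67e-05). The value was 0.961 without the 2 farthest libraries and 0.940 and 0.991 within runs. Against the summed homeostatic genes, which mark resting microglia, Lgals3 gave -0.918 (rho -0.941, both permutation p 1e-05, adjusted 4.44e-05 and 6.67e-05; -0.895 without 2 libraries, -0.865 and -0.953 within runs). Cd9 went with that homeostatic sum, at 0.896 (rho 0.878, both permutation p 1e-05, adjusted 4.44e-05 and 6.67e-05; 0.866 without 2 libraries, 0.824 and 0.913 within runs). Clec7a gave -0.531 (rho -0.634, permutation p 0.00952 and 0.00146, adjusted 0.0146 and 0.00278; -0.468 without 2 libraries, -0.498 and -0.532 within runs). With the dendritic sum Clec7a gave 0.662 (rho 0.668, permutation p 0.00081 and 0.0006, adjusted 0.0018 and 0.0016; 0.581 without 2 libraries, 0.577 and 0.688 within runs). Itgax, itself carried by dendritic cells, gave 0.675 (rho 0.648, permutation p 0.00055 and 0.00091, adjusted 0.00129 and 0.00192; 0.728 without 2 libraries, 0.463 and 0.810 within runs). The other members of the first cluster were positive with it too, Gpnmb at 0.829, Fabp5 at 0.873 and Spp1 at 0.683 (rho 0.846, 0.870 and 0.674, permutation p of r 1e-05, 1e-05 and 0.00032, adjusted 4.44e-05, 4.44e-05 and 0.000825; 0.800, 0.873 and 0.755 without 2 libraries). With group means removed, the dendritic sum gave 0.944 for Lgals3, 0.698 for Gpnmb, 0.823 for Fabp5 and 0.733 for Spp1. For Clec7a and Itgax it then gave 0.447 and 0.37. The homeostatic sum gave -0.88 for Lgals3, 0.899 for Cd9 and -0.372 for Clec7a. Permutations ran over all libraries regardless of group, so these p-values include differences between groups. The part of other myeloid cells in the members' levels was not tested.

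**Figure D5:**
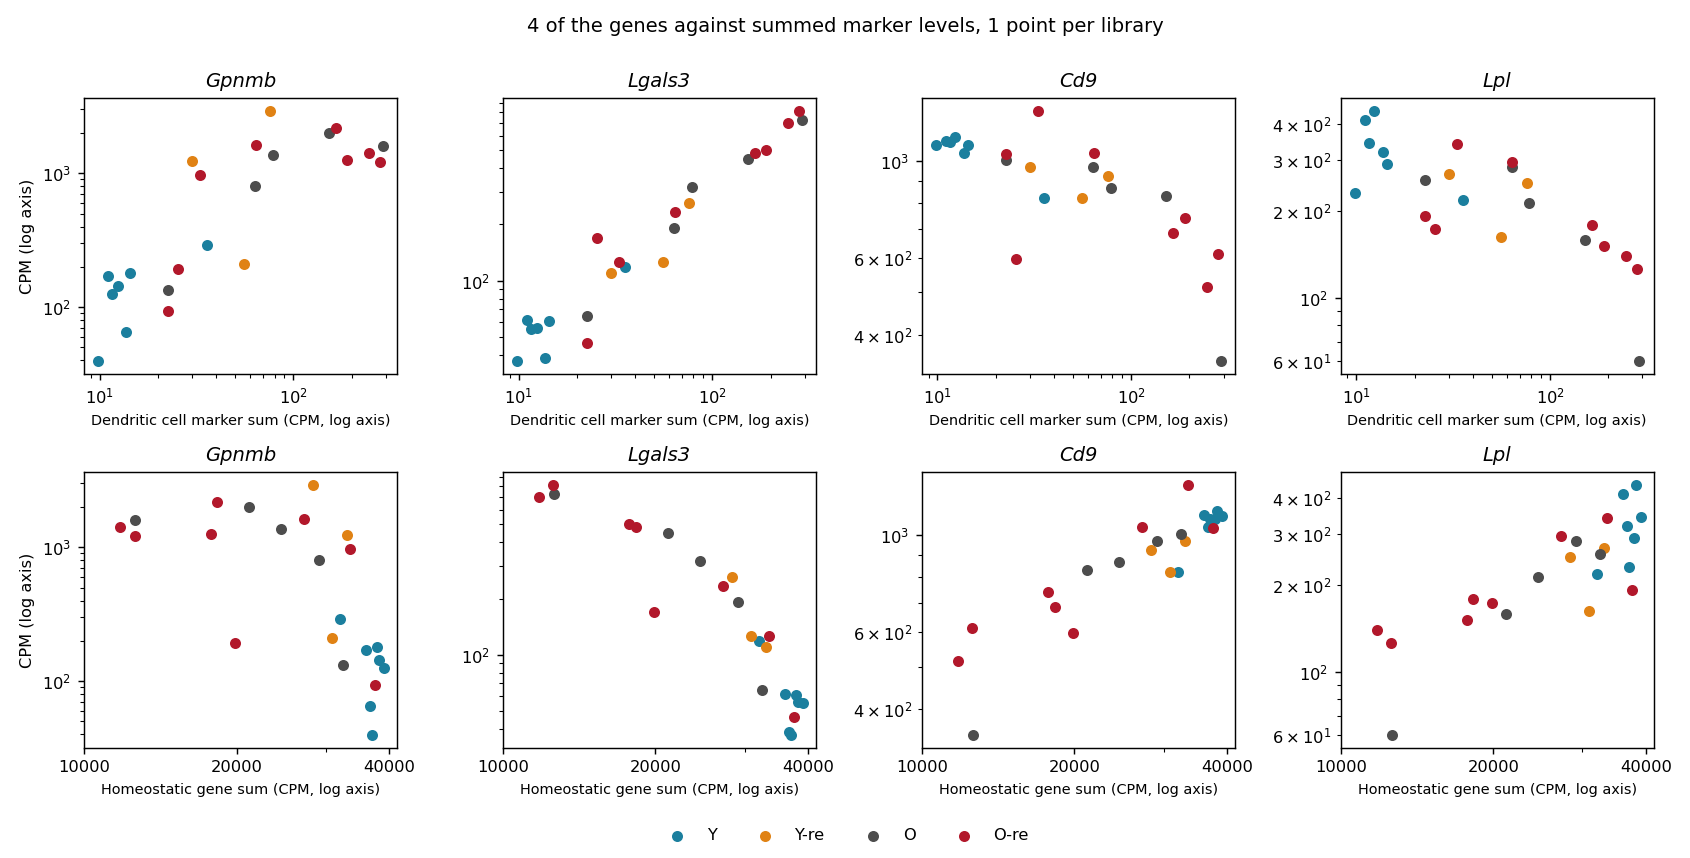
Each point is 1 library, with the CPM of Gpnmb, Lgals3, Cd9 or Lpl on the y axis and the summed CPM of 10 dendritic cell markers (top) or 15 homeostatic microglia genes (bottom) on the x axis, both log axes, coloured by group. Lgals3 rises with the dendritic sum and falls with the homeostatic sum (r of 0.971 and -0.918), and Cd9 and Lpl run the opposite way.

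The sum of 15 homeostatic genes was 32000 to 39060 CPM in Y, 28330 to 33040 in Y-re, 12600 to 32480 in O and 11790 to 37600 in O-re. In O versus Y 1 of 15, the Fc receptor-like gene Fcrls, was called lower, and in O-re versus Y 6 were, among them P2ry12 and Csf1r. In Y-re versus Y and O-re versus O edgeR called 0 homeostatic genes, with 1 and 0 at an unadjusted p under 0.05, and DESeq2 called 1 and 0. Markers of border-associated macrophages, the resident macrophages of brain linings and vessels, summed to 1027 to 1682, 1384 to 1628, 1229 to 2014 and 639.9 to 2910 CPM, with 3 of 10 called higher in O versus Y, 1 in Y-re versus Y (Ms4a7) and 6 in O-re versus Y. Most of that sum was Stab1, at 1270 CPM in Y, 1160 in Y-re, 1120 in O and 1260 in O-re. In O-re versus O edgeR called 0 of them (2 at an unadjusted p under 0.05) and DESeq2 called 1. Neutrophil markers summed to 487 to 645, 547 to 653, 438 to 674 and 272 to 699 CPM, most of it the receptor Csf3r, with 5 of 10 called higher in O versus Y, 1 in Y-re versus Y and 5 in O-re versus Y. For O-re versus O edgeR and DESeq2 called 0 neutrophil markers, with 0 at an unadjusted p under 0.05.

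Markers of cells outside the myeloid lineage had low sums. Neuron markers summed to at most 6.45 CPM in any library, lymphocyte markers to 18.9, endothelial markers to 92.4, oligodendrocyte markers to 139 and astrocyte markers to 186. A few genes made up most of the lymphocyte, astrocyte and oligodendrocyte sums. In Y, Cd79b averaged 16.2 CPM beside 0.0457 for Cd79a, and Slc1a3 99.0 beside 6.21 for Gfap. Cnp, Mbp and Mag averaged 55.0, 37.6 and 16.6 CPM there, beside 0.137 for Mog. Over the 4 comparisons O versus Y, Y-re versus Y, O-re versus O and O-re versus Y, Cd79b of the lymphocyte list was called lower in the second and the fourth. Atp1b2 of the astrocyte list and Rbfox3 of the neuron list were called lower in O-re versus Y, and Mbp of the oligodendrocyte list higher. Of the endothelial genes Flt1 was called higher in all but O-re versus O, and Pecam1 lower in the Y-re and O-re comparisons with Y. Cd3g, Nkg7 and Ncr1 were at 0 in all Y libraries, Ms4a1 in all Y-re libraries and the myelin gene Mog in all Y-re and all O libraries.

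Of 33 other genes of the disease-associated and TREM2 pathway lists, 5 were called higher and 1 lower in O versus Y, 4 and 1 in Y-re versus Y, 1 and 0 in O-re versus O, and 8 and 7 in O-re versus Y. Their median log2 fold changes were -0.15, 0.12, 0.05 and 0.02. Trem2 itself averaged 842, 998, 675 and 734 CPM in Y, Y-re, O and O-re, and its adaptor Tyrobp 794, 957, 686 and 816, and neither was called. The receptor tyrosine kinase Axl, which clears dying cells, rose by 0.72 (edgeR adjusted p 0.0198) in O versus Y, 1.75 (6.3e-05) in Y-re versus Y and 1.44 (1.4e-05) in O-re versus Y. Cybb, the catalytic subunit of the phagocyte NADPH oxidase, rose by 1.59, 1.77 and 1.86 in the same comparisons, and the lysozyme gene Lyz2 by 1.67, 1.92 and 2.28. Igf1, a growth factor, fell by 1.87 in O versus Y (adjusted p 0.00985) and rose by 1.92 in O-re versus O (adjusted p 0.0305), a pattern that none of the 10 effectors showed by the same calls. The protease gene Ctsl fell by 1.15 in Y-re versus Y (adjusted p 0.0402) and by 1.09 in O-re versus Y (0.00135).

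Lipid handling partners of Apoe, Lpl and Fabp5 were tested for 21 of 23 genes. In O versus Y 3 were called higher and 1 lower, and in O-re versus Y 6 higher and 4 lower. In Y-re versus Y edgeR called 0 (9 at an unadjusted p under 0.05) and DESeq2 3, and in O-re versus O both called 0 (2 unadjusted). Their medians were 0.19, -0.06, -0.01 and 0.17. The nuclear receptors Pparg and Nr1h3 rose by 3.23 (edgeR adjusted p 0.0348) and 2.95 (0.0109) in O versus Y. In O-re versus Y the scavenger receptor Cd36 rose by 2.90 (0.00146) and Apoc1, an apolipoprotein gene beside Apoe, fell by 1.34 (0.0208), opposite in direction to Apoe. Gpihbp1, which anchors lipoprotein lipase to vessels, was at 0 in each group and Vldlr in Y-re.

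Receptors, partners and relatives of the other members were 20 genes, all tested. The calls were 2 higher in O versus Y, 1 lower in Y-re versus Y, and 6 higher and 4 lower in O-re versus Y. In O-re versus O edgeR and DESeq2 called 0 (2 at an unadjusted p under 0.05). The medians in the 4 comparisons were -0.01, 0.00, 0.01 and -0.19. Cd44, a receptor for osteopontin, rose by 2.75 in O versus Y (edgeR adjusted p 0.0194) and 3.07 in O-re versus Y (0.00235). Clec4d, a C-type lectin of the Dectin family, rose by 4.15 (0.0106) and 4.55 (0.00146). The heparan sulfate proteoglycan Sdc4 fell by 1.79 in Y-re versus Y (0.0117) and by 1.22 in O-re versus Y (0.00204). Lgals1, a second galectin gene, rose by 2.11 in O-re versus Y (0.00546).

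The genes most like each member were sought among 9638 genes by Pearson's r of log2 CPM over the 23 libraries. Lgals3 had the closest, Smpdl3a (r of 0.986) and Thbd (0.985), and with group means removed Ftl1 (0.987) and Plec (0.981). The heparanase gene Hpse was among the closest 2 of both Gpnmb (0.944) and Fabp5 (0.965), and Stra6l led for Gpnmb (0.964). Igf2r led for Spp1 (0.912), Aldh7a1 for Lpl (0.946), Xlr for Cd9 (0.941) and Pon3 for Cst7 (0.925). For Apoe the closest was Arhgap19 (0.923), for Clec7a Acaca (0.913), and for Itgax Gngt2 (0.837), the lowest of the leading values. For Apoe, Lpl, Spp1, Gpnmb and Fabp5 the same gene led after group means were removed (0.881, 0.928, 0.944, 0.941 and 0.972). These values rank genes over libraries that share groups, runs and depth.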

How the data were processed

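Poly(A) RNA of brain microglia (2.4 to 147 ng) was made into stranded libraries and read as single 50 nt reads, per the labels' protocols. Those protocols describe magnetic CD11b selection with culture as well as sorting, and name the sorted cells for the RNA. STAR, RSEM, limma, FastQC 0.11.5 and GRCm38 are named in the submitters' processing notes, without roles. The authors deposited 1 table per library with expected counts (estimated counts that need not be whole, 87.26% whole within 1e-06) and TPM values. The deposited effective lengths entered 1 alternative. Expected counts were rounded and fitted in R 4.3.3 with edgeR 4.0.16: filterByExpr (18720 genes), TMM, 1 coefficient per group over all 23 libraries, the quasi-likelihood test, and Benjamini-Hochberg adjustment over all genes, called under 0.05. The fit was also run on simulated counts with genes changed in O alone. That check covers O versus Y only and held no differences between runs of library numbers. CPM values are TMM-scaled, and log2 CPM used a prior count of 2. TPM served comparisons between genes. Correlations used 100000 permutations.

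Members, gene lists (13) and tests were chosen with earlier results of these data known. All 10 members are named. From each list, genes called in at least 1 contrast could be named (up to 5 per list, contrast and direction), together with defining markers, Csf1r, and the 2 genes most like each member among those of mean CPM of at least 5. Library numbers come from the sample titles. Group labels carry no replicate numbers, and replicates were numbered in accession order. Coordinates are from GENCODE M21, for identifiers of the same version. Alternatives were DESeq2 1.42.0, RLE factors, all genes unfiltered, genes averaging 5 CPM or more, limma 3.58.1 (voom with sample quality weights), the compared groups alone, library number as a term, each run of library numbers, an effective length offset, TPM levels, and leaving out each library.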

Additional observations from a re-analysis of the deposited data

Results flagged for a closer look

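In 30 combinations of a gene and a group of 4 or more samples, 4 values from 3 libraries lay far from the rest of their group, where chance alone marks about 1 in 20. Itgax in O-re replicate 2 was 48.5 CPM, against 175 to 271 CPM in the other 7. Cd9 in O replicate 3 was 348 CPM, against 834 to 1004 in the other 4, and that library also had the lowest Lpl and Cst7 of its group and the highest Lgals3 and Fabp5. Young replicate 3, the library with the fewest genes detected, stood apart for a pair of genes: Cd9 at 822 CPM, against 1045 to 1134 in the other 6, and Lgals3 at 119 CPM, against 36.9 to 61.5.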

How the results depend on the processing

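The number of the 10 genes called was the same as in the model of all libraries with RLE factors, without a filter, with only genes averaging 5 CPM or more, and with the effective length offset, in each comparison. With the run of library numbers as a term it was 8 in place of 6 for O-re versus Y (24.5% of genes), and the same elsewhere. Fits of the compared groups alone gave 5 for O versus Y (4.09%), 6 for Y-re versus Y (7.5%) and 7 for O-re versus Y (15.8%). Within library numbers 1 to 11, none of the 10 genes was called for O versus Y (0 in place of 4) or O-re versus Y (0 in place of 6). Within numbers 12 to 24 the count was 1 for O-re versus O, 4 for O-re versus Y-re, 5 for the averaged repopulation effect and 4 for the interaction. Voom with sample quality weights gave 2 for O-re versus Y-re, 5 for the averaged effect and 2 for the interaction, DESeq2 gave 1 for the interaction, and both also called more of the 10 in O versus Y (6 and 5) and O-re versus Y (9 and 8), with more genes called in all. Leaving out single libraries gave 0 to 5 for O versus Y, 1 to 4 for Y-re versus Y, 0 to 1 for O-re versus O, 6 to 7 for O-re versus Y, 2 to 4 for the averaged effect, and 0 throughout for O-re versus Y-re and the interaction. The causes were not tested.

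Reversals were mostly in O-re versus O. Voom with weights turned Lpl to -0.078 and Cd9 to -0.14 there, and Cst7 to -0.16 in O-re versus Y. The run of library numbers as a term gave -0.0245 for Lpl, -0.0438 for Cd9 and 0.0663 for Gpnmb in O-re versus O. Numbers 12 to 24 gave -0.28 for Lpl, -0.17 for Itgax and -0.21 for Cd9 in that comparison, and -0.68 for Cst7 in O-re versus Y, and numbers 1 to 11 gave 0.44 for Gpnmb in O-re versus O and 0.19 for Cst7 in O versus Y. Over fits without 1 library, the O-re versus O change ran from -0.19 to 0.21 for Lpl, -0.0454 to 0.29 for Itgax, -0.37 to 0.20 for Gpnmb, -0.22 to 0.52 for Fabp5, -0.17 to 0.11 for Cd9 and -0.13 to 0.59 for Lgals3. It ran from -0.48 to 0.0596 for Cst7 and -0.0719 to 0.86 for Spp1 in the interaction, -0.13 to 0.81 for Spp1 in Y-re versus Y, and -0.91 to 0.63 for Gpnmb in O-re versus Y-re. Depth did not limit the members, the lowest CPM being 30.1 (Fabp5) at totals of at least 43.66 M counts. The number of samples, 3 in Y-re, limits the precision. No paired analysis was possible because the labels give no replicate numbers.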
